A study of Mus musculus with 17 samples.

Results

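The 6 assays described here, from a serum miRNA panel, read miRNAs of striated muscle: mmu-miR-1a-3p, mmu-miR-133a-3p, mmu-miR-133b-3p, mmu-miR-206-3p, mmu-miR-208a-3p and mmu-miR-499-5p, written below without the prefix for mouse. They were chosen by name, by where the miRNAs are known to be made, and are 6 of the 357 miRNA assays in the table. Serum from 17 mice was measured: 3 healthy wild-type FVB/N mice, 7 transgenic AT-ATX mice that had no tumors and 7 that had developed tumors spontaneously. AT-ATX mice carry a transgene for Autotaxin, an enzyme in blood plasma and other fluids that produces the lipid signal lysophosphatidic acid. The design asks which circulating miRNAs differ with the transgene and, among transgenic mice, with tumors. Age, sex, the promoter of the transgene, the strain of the transgenic mice, the kind of tumor and the site of blood sampling are not given in the sources used here. Each sample is labelled as a mouse, and a question mark stands in the label of tumor replicate 5. Apart from the group, the labels of tumor-free replicate 4 and tumor replicate 4 differ only by a letter. Both carry the number 85, and some numbers recur among the other transgenic labels. The labels do not say whether such sera come from related mice. No heart or skeletal muscle was measured.

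MiRNAs are short RNAs that pair with messenger RNAs and lower their output, and those of striated muscle are often called myomiRs. MiR-1a and miR-133a are made together in heart and skeletal muscle, where miR-1 favors differentiation and miR-133 restrains it. MiR-133b and miR-206 come from one long noncoding RNA of skeletal muscle, and miR-206, a close relative of miR-1, rises in regenerating muscle. MiR-208a and miR-499 lie within myosin heavy chain genes and follow their hosts, miR-208a in heart and miR-499 in heart and slow muscle fibers. Injured muscle releases these miRNAs, and in blood they are used as signs of damage to heart or skeletal muscle.

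The mature sequences below are from RefSeq with build GRCm38.p6. They show which of the members listed share a seed, the bases 2 to 8 from the 5′ end that mainly set target choice. The seed is in capitals. RefSeq held 4 of the 6 members under these names.
miR-133b-3p: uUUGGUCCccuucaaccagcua
miR-206-3p: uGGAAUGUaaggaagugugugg
miR-208a-3p: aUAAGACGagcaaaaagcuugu
miR-499-5p: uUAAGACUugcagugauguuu
MiR-208a-3p and miR-499-5p had the same bases 2 to 7 and unlike seeds over bases 2 to 8. Neither miR-133b-3p nor miR-206-3p shared such a stretch with another of the 4. MiR-1a-3p and miR-133a-3p, without a sequence here, could not be compared. The 4 sequences therefore do not show that miR-133b-3p and miR-206-3p have seeds unlike those of all other members. MiR-206-3p lies at chr1:20679055-20679076 and miR-133b-3p at chr1:20682834-20682855, both on the + strand and within the noncoding gene Lincmd1. MiR-208a-3p lies at chr14:54949072-54949093 on the - strand within Myh6, the main myosin heavy chain gene of the adult mouse heart. MiR-499-5p lies at chr2:155622893-155622913 on the + strand within Myh7b, another myosin heavy chain gene.

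The readout was the quantification cycle (Ct), which falls as the amount of template rises, by about 1 cycle for each doubling. To give a level, an assay's Ct was subtracted from the mean over the 252 miRNAs found in all 17 sera. Levels are on a log2 scale, and a level is relative to the panel, not an amount per volume. Between 312 and 356 miRNA assays were detected per serum. In serum, release from more cells and release of more RNA per cell cannot be told apart. The 4 sera of tumor-free replicates 4, 5 and 7 and tumor replicate 1 stood apart from the other 13 in the decimals of their values, which had 1 kind of ending where the others had 2, and the sources used here do not say what this marks. The hemolysis index is the number of cycles by which miR-451a, a red blood cell miRNA, came up before miR-23a-3p. It ran from 2.21 to 7.82 cycles, and a higher index means more miR-451a relative to miR-23a-3p.

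MiR-1a-3p, miR-133a-3p and miR-133b-3p were detected in all 17 sera, and their amounts ranged more widely than those of nearly any other miRNA on the panel. MiR-1a-3p, the most abundant miRNA of heart and skeletal muscle, had a Ct of 25.5, 30.5 and 29.5 in the 3 wild-type sera. Its Ct ran from 25.0 over a median of 26.7 to 30.3 in tumor-free sera. In tumor sera it ran from 22.0 over a median of 29.5 to 33.0. Tumor sera thus held both the lowest and the highest Ct of all 17, 10.95 cycles apart, and they enclosed the range of both other groups. On the level scale miR-1a-3p was -0.15 ± 2.00 (SD, n = 3) in wild-type, 1.76 ± 1.81 (SD, n = 7) in tumor-free and 0.98 ± 3.05 (SD, n = 7) in tumor sera.

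MiR-133a-3p, which restrains the differentiation of muscle precursors, was lowest and highest in Ct in the same sera as miR-1a-3p. Its Ct was 24.3, 30.02 and 29.1 in wild-type sera. It ran from 24.2 over a median of 25.9 to 29.3 in tumor-free sera. It ran from 20.8 over a median of 28.3 to 30.6 in tumor sera. The 3 groups overlapped, with tumor replicate 7 lowest and tumor replicate 4 highest. Its level was 0.57 ± 2.29 (SD, n = 3) in wild-type, 2.57 ± 1.69 (SD, n = 7) in tumor-free and 2.37 ± 2.91 (SD, n = 7) in tumor sera.

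MiR-133b-3p, the skeletal muscle relative of miR-133a, had the lowest Ct of the 6 assays in every serum. Its Ct was 23.6, 29.2 and 28.3 in wild-type sera. It ran from 23.7 over a median of 25.3 to 29.0 in tumor-free sera. It ran from 20.3 over a median of 27.8 to 29.5 in tumor sera, and the groups overlapped. Since miR-133a and miR-133b are near-identical, each assay may also read the other RNA, which was not tested, and assay efficiencies are not given in the sources used here, so the order of Ct between assays is not an order of copies.

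MiR-206-3p, the member most restricted to skeletal muscle, was detected in 16 of 17 sera, all but wild-type replicate 3. Its Ct was 28.5 and 36.0 in the other wild-type sera. It ran from 29.9 over a median of 32.6 to 36.2 in tumor-free sera. It ran from 25.5 over a median of 34.4 to 36.0 in tumor sera. Tumor replicate 7 was lowest and wild-type replicate 1 next, so the sera with the most miR-206-3p came from different groups. Its level was -4.68 ± 4.45 (SD, n = 2) in wild-type, -3.94 ± 1.99 (SD, n = 7) in tumor-free and -3.08 ± 3.08 (SD, n = 7) in tumor sera.

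The heart miRNAs lay close to the limit of detection. MiR-208a-3p was detected in 14 of 17 sera and was missing in wild-type replicate 2 and tumor replicates 3 and 4. Its Ct was 35.1 and 36.6 in the other wild-type sera. It ran from 31.7 over a median of 32.7 to 36.4 in tumor-free sera. It ran from 32.4 over a median of 34.5 to 36.8 in the 5 tumor sera with a value. Its lowest Ct was in tumor-free replicate 6, the single member for which tumor replicate 7 was not lowest. Its level was -7.31 ± 1.04 (SD, n = 2) in wild-type, -4.65 ± 1.67 (SD, n = 7) in tumor-free and -5.01 ± 1.38 (SD, n = 5) in tumor sera.

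MiR-499-5p, the myosin intron miRNA of heart and slow fibers, was detected in 16 of 17 sera, all but tumor replicate 4. Its Ct was 33.8, 35.6 and 35.6 in wild-type sera. It ran from 31.0 over a median of 31.99 to 34.99 in tumor-free sera. It ran from 30.2 over a median of 33.6 to 36.6 in the 6 tumor sera with a value. Its level was -6.84, -7.47 and -5.61 in wild-type sera and from -5.60 over a median of -3.28 to -1.44 in tumor-free sera. All 7 tumor-free levels thus lay above all 3 wild-type levels, although the nearest sera, tumor-free replicate 7 and wild-type replicate 3, were almost equal. In tumor sera the level ran from -6.85 over a median of -4.29 to -2.20, and 5 of 6 lay above all wild-type sera. By Fisher's exact test (two-sided) no member differed in detection between groups, and the smallest p was 0.3.

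**Figure D1:**
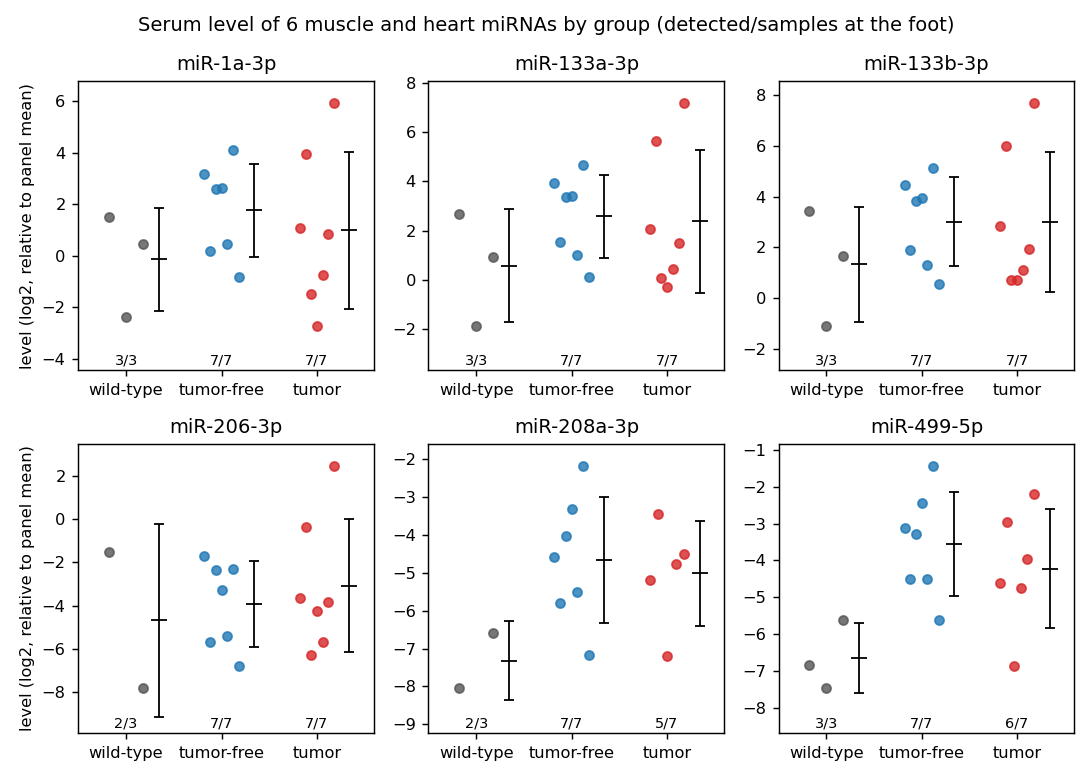
Level of each miRNA (log2, relative to the panel mean; y axis) in wild-type, tumor-free and tumor sera (x axis), 1 point per mouse, with the group mean ± SD beside the points and the number of sera with a value at the foot. For miR-499-5p the 7 tumor-free points lie above the 3 wild-type points, and for the other 5 members the groups overlap.

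Spread between mice of the same group set these miRNAs apart from most of the panel. The within-group SD of the level was 2.78 for miR-206-3p, 2.44 for miR-1a-3p, 2.37 for miR-133a-3p and 2.31 for miR-133b-3p. These were ranks 1, 2, 3 and 4 among the 338 assays tested, whose median SD was 0.905. The heart miRNAs varied less, with an SD of 1.52 and rank 27 for miR-208a-3p and an SD of 1.44 and rank 42 for miR-499-5p. No test was made of these ranks. Of the 14 values of miR-208a-3p 7 lay at or under a Ct of 35, and the effect of the limit of detection on its spread was not tested.

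No member passed the test in any comparison. Tumor against tumor-free sera, which share the transgene, gave 0 of 6 members at an adjusted p under 0.05 (limma, Benjamini-Hochberg over 338 assays), against 1.48% of all assays. At an unadjusted p under 0.05 it was again 0 of 6, against 16.9% of all assays. MiR-1a-3p was lower by a level difference of -0.78 (SE 1.13, limma adjusted p 0.772), and miR-206-3p was higher by 0.85 (SE 1.26, limma adjusted p 0.772). MiR-133a-3p and miR-133b-3p gave -0.21 (SE 1.10) and -0.02 (SE 1.07). The heart miRNAs gave -0.36 (SE 0.78) for miR-208a-3p and -0.67 (SE 0.72) for miR-499-5p. The median over the 6 members was -0.28, beside 0.14 over all assays tested, and without tumor replicate 7 it was -0.90, with -1.60 for miR-1a-3p. The 95% interval for miR-1a-3p, from -3.13 to 1.58, was wide enough to hold a several-fold change either way, so these data do not show that the groups are alike.

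Tumor-free transgenic against wild-type sera gave the largest member differences, and they were in the heart miRNAs. The adjusted test called 0 of 6 members, against 0.592% of all assays, and 2 of 6 had an unadjusted p under 0.05, against 22.5% of all assays. MiR-499-5p was higher by 3.09 (SE 0.89, 95% interval 1.22 to 4.95), an 8.499-fold change, with a limma p of 0.0026 and an adjusted p of 0.0975, the ninth smallest p of the 338 (rank 9). Its exact permutation p (two-sided) was 0.00833, the smallest that 3 against 7 sera can give. It was the 1 of 6 members whose tumor-free values all lay above all wild-type values, against 6.8% of all assays. MiR-208a-3p was higher by 2.66 (SE 1.07, 95% interval 0.41 to 4.92), with a limma p of 0.0233 and an adjusted p of 0.176, over 7 and 2 sera. Its exact permutation p was 0.111.

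MiR-1a-3p, miR-133a-3p and miR-133b-3p gave differences of 1.90 (SE 1.46), 2.00 (SE 1.41) and 1.68 (SE 1.38), and limma adjusted p ran from 0.416 to 0.464. MiR-206-3p gave 0.75 (SE 1.90). These values rested on single sera. Leaving out wild-type replicate 1 gave 2.72 for miR-1a-3p, 3.06 for miR-133a-3p, 2.72 for miR-133b-3p and 3.89 for miR-206-3p. Leaving out wild-type replicate 2 gave 0.79, 0.78, 0.47 and -2.40 for the same 4. MiR-206-3p had no value in wild-type replicate 3, so its values of 3.89 and -2.40 each rest on 1 wild-type serum. The median over the 6 members was 1.95, beside 0.03 over all assays tested, and it was 2.85 and 0.78 without these sera in turn. With raw Ct, without any scaling, the 6 members' median was 0.93 and that of all assays was -1.07, and miR-499-5p gave 2.07 with a limma adjusted p of 0.346. The 4 sera with a single decimal ending include 3 tumor-free and 0 wild-type sera, and without them miR-499-5p gave 3.56 with a limma adjusted p of 0.2.

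Other marker lists were set beside these differences, and no miRNA of any passed, against 0.592% of all assays. The mean level of 5 red blood cell miRNAs lay between 7.35 and 9.35 in wild-type and between 6.49 and 8.23 in tumor-free sera. Of these, 5 of 5 were lower, with a median difference of -1.17, beside 0.03 over all assays. The mean level of 4 smooth muscle and fibroblast miRNAs lay between -0.91 and 1.90 in wild-type and between 1.28 and 2.27 in tumor-free sera. Of these, 4 of 4 were higher, with a median of 0.98. The medians of the liver, platelet and neuron lists were -0.27, -0.02 and 0.998. With the hemolysis index as a covariate the difference of miR-499-5p was 2.33 (limma adjusted p 0.191). The members' median was then 0.55, with 0.44 for miR-1a-3p, 0.66 for miR-133a-3p, 0.39 for miR-133b-3p and -0.82 for miR-206-3p. The part of any list in the member differences was not tested.

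Tumor against wild-type sera gave 0 of 6 members at an adjusted p under 0.05, against 8.28% of all assays, and 1 of 6 at an unadjusted p under 0.05, against 25.1%. That member was miR-499-5p, with a difference of 2.42 (SE 0.91, limma p 0.0158, adjusted p 0.103) over 6 and 3 sera. Without tumor replicate 3, the serum with its highest Ct, the difference was 2.94 and passed (limma adjusted p 0.0311). MiR-208a-3p gave 2.30 (SE 1.11, limma adjusted p 0.21). The other differences were 1.12 (SE 1.46) for miR-1a-3p, 1.80 (SE 1.41) for miR-133a-3p, 1.66 (SE 1.38) for miR-133b-3p and 1.60 (SE 1.90) for miR-206-3p. Leaving out wild-type replicate 1 gave 1.94, 2.85, 2.70 and 4.74 for these 4, and leaving out wild-type replicate 2 gave 0.009, 0.58, 0.45 and -1.54. The values of 4.74 and -1.54 for miR-206-3p each rest on 1 wild-type serum. The median over the members was 1.73, beside 0.19 over all assays, and with the hemolysis index as a covariate it was -0.02, with 3 members above 0 and 3 below. The comparisons with wild-type share the same 3 wild-type sera. By group means, tumor-free sera ranked first and wild-type sera last for 5 members, and tumor sera ranked first for miR-206-3p, but no neighbors in these orders differed past the adjusted threshold.

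**Figure D2:**
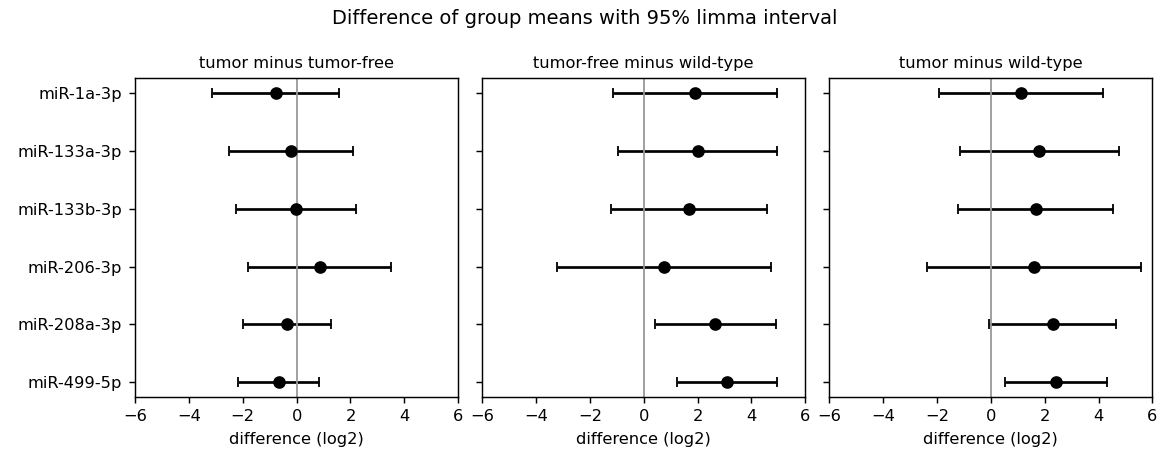
Difference of group means in level (log2; x axis) for each miRNA (y axis) in the 3 comparisons, with 95% intervals from limma. The intervals of miR-208a-3p (0.41 to 4.92) and miR-499-5p (1.22 to 4.95) lie above 0 for tumor-free minus wild-type, before adjustment over the 338 assays.

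The members moved together from serum to serum. With group means subtracted, all 15 pairs of members correlated positively. Pearson's r ran from 0.716 (miR-133a-3p with miR-208a-3p, 14 sera) to 0.998 (miR-133a-3p with miR-133b-3p, 17 sera), and all 15 passed by a permutation test over sera (largest adjusted p 0.00655 over the 15). The share of all pairs of panel assays that pass this test was not computed. The moving together is therefore not shown to be particular to the members, and miR-455-3p, not a member, followed their mean with r 0.916. MiR-133b-3p and miR-206-3p, which share a host RNA, gave r 0.969 and Spearman's rho 0.947 over 16 sera (permutation p 3e-05 and 2e-05). MiR-1a-3p and miR-133a-3p, which are made together, gave r 0.984 and rho 0.993 over 17 sera (permutation p 1e-05 for both, the smallest that 100000 reorderings can give). MiR-208a-3p and miR-499-5p, from unlinked myosin genes, gave r 0.910 and rho 0.930 over 14 sera (permutation p 0.00014 and 5e-05). Without the 2 sera farthest from the median of the first-named miRNA, r was 0.951, 0.984 and 0.883 for these 3 pairs. Levels share the panel mean, and with raw Ct r over the 15 pairs ran from 0.884 to 0.999. Across the 13 sera with 2 decimal endings r ran from 0.628 to 0.998, and 11 of 15 passed. The 4 that did not were miR-208a-3p with miR-1a-3p, miR-133a-3p, miR-133b-3p and miR-206-3p. The other 4 sera are too few for a value of their own.

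**Figure D3:**
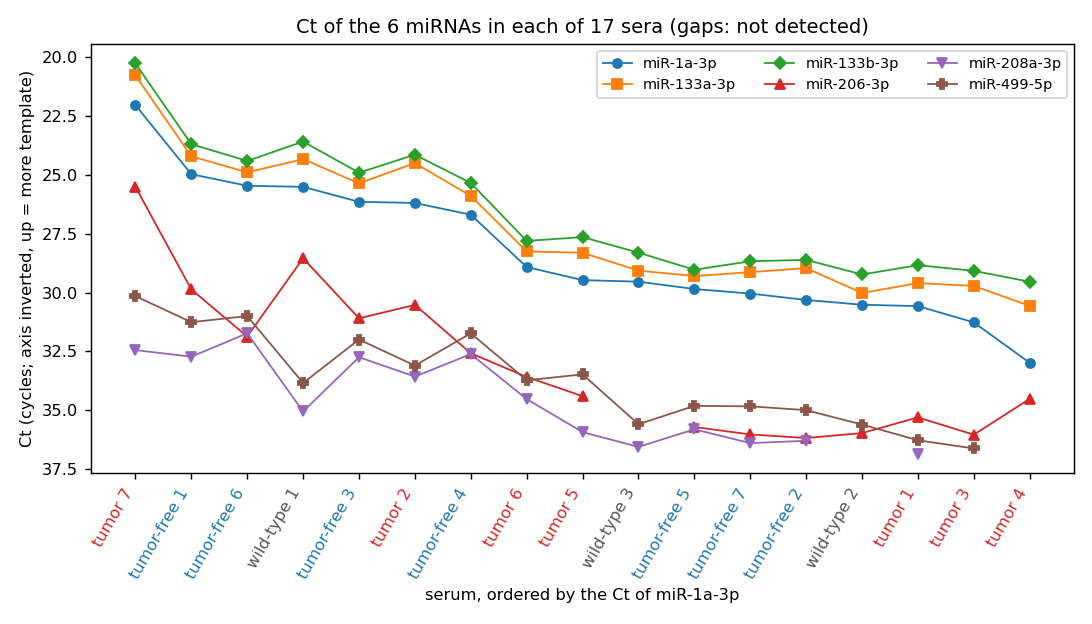
Ct in cycles (y axis, inverted so that up is more template) of the 6 miRNAs in each of 17 sera (x axis), ordered by the Ct of miR-1a-3p, with a gap where a miRNA was not detected. MiR-1a-3p, miR-133a-3p and miR-133b-3p run in parallel through all sera, and a step separates 7 sera with a miR-1a-3p Ct of 22.0 to 26.7 from 10 with 28.9 to 33.0.

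The Ct of miR-1a-3p left a gap between 7 sera at 22.0 to 26.7 and 10 at 28.9 to 33.0, so r was also taken inside each set, as a description. The gap was sought only in the middle of the order. A wider gap set tumor replicate 7 (22.0) apart from the next serum, tumor-free replicate 1 (25.0). Sera of all 3 groups lay in both sets. Among the 7 sera with more miR-1a-3p, r was 0.998 for miR-133a-3p with miR-133b-3p, 0.906 for miR-133b-3p with miR-206-3p and 0.758 for miR-208a-3p with miR-499-5p. In the same 7 sera r between miR-208a-3p and the other 4 members was 0.112 with miR-1a-3p, 0.0216 with miR-133a-3p, 0.016 with miR-133b-3p and -0.379 with miR-206-3p. Among the 10 sera with less, r ran from 0.553 to 0.987 over the 15 pairs, and r of miR-208a-3p with the same 4 members ran from 0.883 to 0.983 over 6 or 7 sera. The sets of 7 and 10 were not compared by a test. They were cut by the Ct of a member, which narrows its range inside each set. Group means were subtracted over all sera, not within a set. The values of r in the sets therefore cannot be set against each other. The 7 include wild-type replicate 1 and tumor replicate 7. Without these 2 sera, over the other 15 sera of all groups, all 15 pairs passed, with r from 0.859 to 0.996, and r of miR-208a-3p with the same 4 members ran from 0.863 to 0.933.

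**Figure D4:**
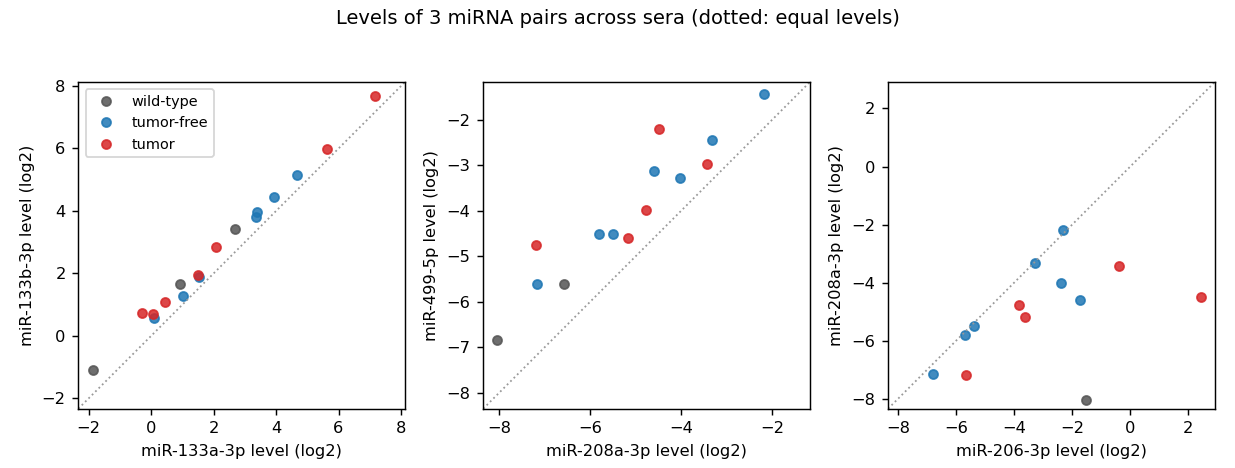
Levels (log2) of 3 pairs of miRNAs in sera where both were detected, 1 point per serum, colored by group, with a dotted line of equal levels. The points of miR-133a-3p and miR-133b-3p keep to a narrow band. For miR-206-3p and miR-208a-3p, wild-type replicate 1 and tumor replicate 7 lie much further below the dotted line than the others.

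Ct differences between members of one serum need no scaling, and they were compared for 6 pairs and 3 comparisons, 18 tests in all. None passed after adjustment over the 18 (exact permutation tests, two-sided), and 4 had an unadjusted p under 0.05. Against wild-type, 3 against 7 sera cannot give an exact permutation p below 0.00833, and fewer sera give a higher limit. A single pair at that limit could not pass on its own over the 18, so not passing says little there. The Ct of miR-206-3p minus that of miR-208a-3p, positive where the heart miRNA is ahead, was -6.51 in wild-type replicate 1 and -6.94 in tumor replicate 7. In the other 11 sera with both it ran from -3.05 to 0.14. These were also the sera with the lowest miR-206-3p Ct. The Ct of miR-208a-3p was 35.1 in wild-type replicate 1, where its level (-8.05) was its lowest of all sera. It was 32.4 in tumor replicate 7. In tumor-free sera the Ct of miR-206-3p minus that of miR-208a-3p was -0.71 ± 1.12 (SD, n = 7). In tumor sera it was -2.80 ± 2.44 (SD, n = 5), with an exact permutation p of 0.0455 and an adjusted p of 0.205. The difference between these means ran from -2.55, without tumor replicate 6, to -1.05, without tumor replicate 7. The Ct of miR-1a-3p minus that of miR-499-5p was lowest in the same 2 sera, -8.33 and -8.12, and ran from -6.91 to -4.01 in the other 14 with both.

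The steadiest pair was miR-133b-3p over miR-133a-3p, whose Ct difference spanned 0.759 cycles over 17 sera. It was 0.745, 0.787 and 0.764 in wild-type sera, a spread of 0.0209 cycles (SD). It ran from 0.268 over a median of 0.463 to 0.551 in tumor-free sera, so all 7 lay below all 3 wild-type sera. The mean difference was -0.32 (SE 0.0392, exact permutation p 0.00833, the smallest that 3 against 7 sera can give, adjusted p 0.15). In tumor sera it was 0.629 ± 0.223 (SD, n = 7) and overlapped both other groups. MiR-1a-3p over miR-133a-3p was lower in tumor than in tumor-free sera, -1.39 ± 0.57 against -0.82 ± 0.27 (SD, n = 7 each), with an exact permutation p of 0.0262 and an adjusted p of 0.205. MiR-206-3p over miR-133b-3p was higher, -6.08 ± 0.76 against -6.95 ± 0.60 (SD, n = 7 each), with an exact permutation p of 0.0355 and an adjusted p of 0.205. MiR-499-5p over miR-208a-3p was 1.09 ± 0.17 (SD, n = 2) in wild-type, 1.10 ± 0.34 (SD, n = 7) in tumor-free and 1.32 ± 0.97 (SD, n = 5) in tumor sera, and these overlapped.

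Muscle miRNA levels were lower in sera with a higher hemolysis index. The index rises with more miR-451a and also with less miR-23a-3p, and the part of each was not tested. With group means subtracted, r with the hemolysis index was -0.784 for miR-1a-3p, -0.743 for miR-133a-3p and -0.731 for miR-133b-3p over 17 sera (permutation p 0.00121, 0.0044 and 0.00535, adjusted over 18 relations 0.0218, 0.0321 and 0.0321). Spearman's rho was -0.696, -0.713 and -0.669 for the same miRNAs (permutation p 0.00655, 0.00626 and 0.0106), which did not pass adjustment (0.059, 0.059 and 0.0636). Without the 2 sera farthest from the median index, r was -0.700, -0.680 and -0.684. For miR-206-3p, miR-208a-3p and miR-499-5p r was -0.675, -0.483 and -0.592, and none passed. Across the 13 sera with 2 decimal endings r ran from -0.907 for miR-1a-3p to -0.728 for miR-208a-3p, although for miR-208a-3p it was -0.243 without 2 sera. Neither the mean Ct of the shared assays nor the number of assays detected was related to a member's level past the threshold. With raw Ct all 6 members were related to both, with r from -0.703 to -0.585 for the mean Ct and from 0.677 to 0.798 for assays detected. Raw Ct is not scaled to the panel, so a relation with these measures of overall signal can be found for any assay. The share of all assays with such a relation was not computed. The mean Ct also includes miR-1a-3p, miR-133a-3p and miR-133b-3p themselves.

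**Figure D5:**
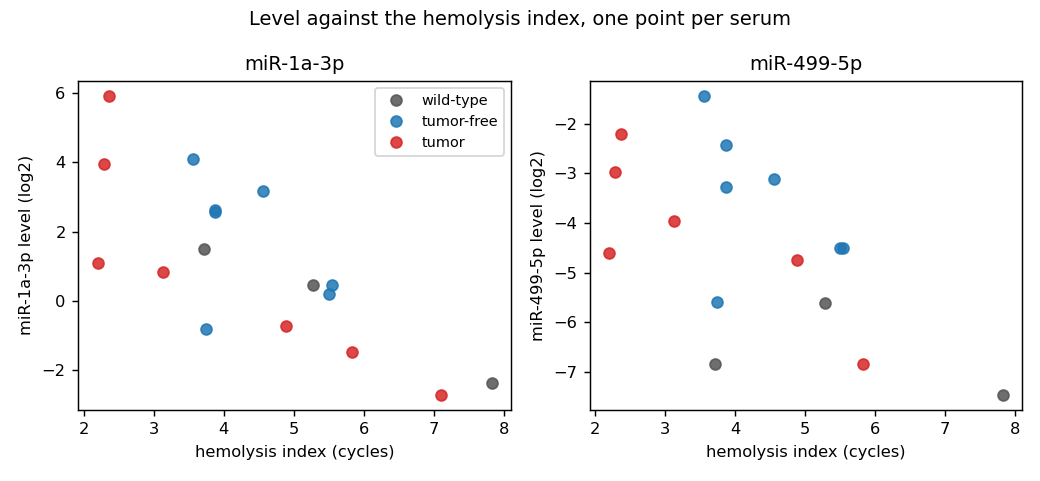
Level (log2; y axis) of miR-1a-3p and miR-499-5p against the hemolysis index in cycles (x axis), 1 point per serum, colored by group. The sera with the highest index, wild-type replicate 2 (7.82) and tumor replicate 4 (7.09), have the lowest miR-1a-3p levels.

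Among 249 other assays detected in all sera, 5 were most like the mean of the 6 members over 17 sera, after subtraction of group means. These were miR-455-3p (r 0.916), miR-497-5p (r 0.881), miR-199a-5p (r 0.830), miR-29c-5p (r 0.817) and miR-125a-5p (r 0.815). All points share the serum and the panel mean, and on raw Ct the r of the first was 0.933. MiR-455-3p itself passed with a difference of -2.67 in tumor against tumor-free sera (limma adjusted p 0.02). It also passed with -3.54 in tumor against wild-type sera (limma adjusted p 0.0078), where the members' median was 1.73.

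The panel also held rat-named assays for 2 members. The rat assay for miR-1-3p was detected in 13 sera, at a Ct 7.02 cycles above that of mouse miR-1a-3p at the median, and followed it with r 0.959. The rat assay for miR-208a-3p was detected in all 17 sera but did not follow its mouse counterpart, with r 0.123 over 14 sera. Its lowest Ct, 32.8, was in wild-type replicate 2, where mouse miR-208a-3p was not detected, and its highest, 36.5, in tumor replicate 7, where the other muscle miRNAs were highest. The mouse and rat assays of miR-208a-3p thus ranked the sera differently, and which of them reads the miRNA more truly was not tested. In tumor-free against wild-type sera the rat assay gave -0.04 (SE 0.97, limma adjusted p 0.974), where the mouse assay gave 2.66.

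A further list held 12 miRNAs abundant in muscle but also made in many other tissues. Their mean level stayed between 3.15 and 4.24 in all 17 sera. In tumor against tumor-free sera 0 of 12 passed, against 1.48% of all assays, with a median difference of 0.30. In tumor-free against wild-type sera 0 of 12 passed, against 0.592%, with a median of -0.01. In tumor against wild-type sera 1 of 12 passed, close to the share of all assays (8.28%). This was miR-29a-3p, a repressor of collagen genes, higher by 1.63 (SE 0.47, limma adjusted p 0.039). The smallest p among the others were those of miR-22-3p (1.56, limma adjusted p 0.0542) and miR-26a-5p (-1.77, limma adjusted p 0.0545) in tumor against wild-type sera, and of miR-26a-5p (-1.22), miR-24-3p (0.52) and miR-30a-5p (0.60) in tumor against tumor-free sera. In tumor-free against wild-type sera they were those of miR-29a-3p (1.40), miR-30a-5p (-1.45) and miR-30e-5p (-1.25), none past the threshold.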

How the data were processed

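RNA came from 50 µL of serum prepared from necropsy blood, per the labels' protocols, and SYBR Green PCR ran for 40 cycles on ready-made serum miRNA panels. The deposited values are quantification cycles (Ct), not normalized per the name of the table; threshold setting, plate calibration and the detection limit are not stated in the sources used. Empty cells were taken as not detected and left missing. Testing required a value in 2 or more wild-type, 5 or more tumor-free and 5 or more tumor sera, which left 338 assays with all 6 members. The 3 groups entered 1 fit in limma 3.58.1 (R 4.3.3; lmFit and eBayes, two-sided), with Benjamini-Hochberg adjustment over 338 assays and a threshold of 0.05. The fit was tested on simulated data. Single values were also compared by exact permutation, and correlations used 100000 reorderings of sera within groups (Python 3.11.15, numpy 2.4.6, pandas 2.3.3, scipy 1.17.1). Named assays were the 6 members, the rat assays of the same miRNAs, the 5 most alike assays, miR-451a and miR-23a-3p, and muscle-abundant miRNAs past the threshold or with the 3 smallest p. Lists for liver, platelet and neuron were also fixed. In tumor against tumor-free sera 1 of 5 (lower), 0 of 4 and 0 of 3 passed, against 1.48% of all assays. In tumor-free against wild-type sera 0 of each list passed, against 0.592%. In tumor against wild-type sera 3 of 5 (lower), 1 of 4 (higher) and 1 of 3 (higher) passed, against 8.28%. The members and lists were chosen with earlier results of these data known. The p-values measure the spread between these sera, and the number of mice limits their precision.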

Additional observations from a re-analysis of the deposited data

How the results depend on the processing

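No member passed at an adjusted p under 0.05 under any scaling, missing-value, filter, variance, covariate or sample alternative other than leaving out single sera, where 0 to 1 members passed in tumor against wild-type sera. The count of all assays that passed in limma moved more. In tumor against tumor-free sera it was 5, became 0 with reference miRNAs (42 at an unadjusted p under 0.05), raw Ct (17), spike-ins (14), without the sera with a single decimal ending (30) and by exact permutation (57), became 13 with the hemolysis covariate, and was 2 to 10 leaving out single sera. In tumor-free against wild-type sera it was 2, became 1 with median scaling, reference miRNAs, trend and robust variance or without single-ending sera, 0 with raw Ct (63), spike-ins (65) and exact permutation (85), 4 with missing values at Ct 37, 5 with the hemolysis covariate, and 1 to 9 leaving out single sera. In tumor against wild-type sera it was 28 (14 higher, 14 lower), became 11 with reference miRNAs (7 higher, 4 lower), 15 with raw Ct (0 higher), 8 with spike-ins (0 higher), 14 without single-ending sera and 0 by exact permutation (45), and was 10 to 39 leaving out single sera. For exact permutation, 3 against 7 sera cannot give a p below 0.00833. An assay at that limit passes over 338 assays only if many others reach it too. The 0 by exact permutation against wild-type was therefore nearly fixed beforehand. Some uncalled member differences changed sign. MiR-133b-3p gave 0.10 and 0.082 with median and quantile scaling in tumor against tumor-free sera. MiR-206-3p gave -1.08 (raw Ct), -1.05 (spike-ins), -0.015 (quantile) and -0.82 (hemolysis covariate) in tumor-free against wild-type sera. In tumor against wild-type sera it gave -0.585, -0.24 and -0.43 with raw Ct, spike-ins and the covariate, miR-1a-3p gave -0.26 and -0.825 with raw Ct and the covariate, and miR-133b-3p gave -0.058 with the covariate. With missing values at Ct 37, pair differences became 0.72 (miR-206-3p over miR-133b-3p) and -0.12 (miR-208a-3p over miR-206-3p) in tumor against wild-type sera, and -0.10, -0.091 and -0.20 for miR-499-5p over miR-208a-3p in the 3 comparisons. Correlations of members with sample measures passed for 3 of 18 relations, and for 15 with raw Ct and 15 with spike-ins, where r of miR-208a-3p with the mean Ct became -0.585 and -0.57. Neither raw Ct nor spike-ins scale to the panel, and the share of all assays with such relations was not computed. Leaving out single sera, the difference of miR-206-3p ran from -2.40 to 3.89 in tumor-free and from -1.54 to 4.74 in tumor against wild-type sera. The ends of these ranges each rest on 1 wild-type serum. In tumor against tumor-free sera miR-133a-3p ran from -1.01 to 0.24, miR-133b-3p from -0.80 to 0.37, miR-206-3p from -0.069 to 1.38 and miR-208a-3p from -0.78 to 0.18. Pair differences that changed sign ran from -0.33 to 0.021 (miR-1a-3p over miR-133a-3p, tumor-free against wild-type), from -1.12 to 0.66 (miR-206-3p over miR-133b-3p) and -0.24 to 1.38 (miR-499-5p over miR-1a-3p) in tumor against wild-type sera, and for miR-499-5p over miR-208a-3p from -0.066 to 0.43 between the transgenic groups, and against wild-type from -0.11 to 0.13 (tumor-free) and -0.055 to 0.44 (tumor). Pairs with miR-206-3p or miR-208a-3p had values in at most 2 wild-type sera. Apart from the limit of exact permutation, the cause of these changes was not tested. With values above Ct 35 missing, miR-206-3p, miR-208a-3p and miR-499-5p could not be tested. The number in the transgenic labels, whose meaning the labels do not state, entered as a random block (correlation 0.0703), changed no member's call. The subsets of sera used for correlations and spike-ins for sample measures were chosen after seeing the data.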
